A study of Mus musculus with 12 samples.

Results

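The exchangeable apolipoproteins are small, soluble proteins that sit on the surface of lipoprotein particles and can move between them. The genes described here are Apoa1, Apoa2, Apoa4, Apoa5, Apoc1, Apoc2, Apoc3, Apoe, Apom and Apoh, taken by symbol from the 24062 genes counted in each library. All 10 passed the filter on low counts that left 12015 genes for testing. Apoh is grouped here with the others although it is best known as a phospholipid-binding plasma protein. The RNA came from livers of male mice aged 14 weeks on a mixed 129SvEV-C57BL/6 background, all with floxed alleles (F/F) of Nr5a2, the gene of the nuclear receptor LRH-1. Mice labelled knockout had received AAV8-Cre, a viral vector with Cre recombinase that chiefly reaches hepatocytes, and controls had received AAV8-eGFP according to the series description. There were 3 libraries labelled knockout and 3 control libraries on a standard diet (SD), and 2 labelled knockout and 4 control libraries after 6 weeks on a high-fat diet (HFD, D12492). No label states that the libraries come from separate mice, so the spread behind each p-value is that between libraries.

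Hepatocytes make most of the circulating apolipoproteins. They load lipid onto the structural protein APOB to form very low density lipoprotein, and they secrete APOA1, which collects cholesterol into high density lipoprotein (HDL). The exchangeable proteins then steer the particles: some activate or restrain lipoprotein lipase, the enzyme that unloads triglyceride in the blood, and APOE is the ligand by which remnants are taken back up. LRH-1 is a nuclear receptor of liver, intestine and pancreas known for its control of bile acid and cholesterol genes, and APOA1 and APOM have been described as genes under its control.

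Total counts were 2371167 to 3030139 in the SD libraries labelled knockout and 2478857 to 3404570 in the SD controls, against 7463792 to 8865421 in the HFD libraries labelled knockout and 7876724 to 10875478 in the HFD controls. Nr5a2, the targeted gene, was not counted less often in libraries labelled knockout: it stood at 95.3, 100.1 and 94.7 CPM (counts scaled to the normalized library size) in SD knockouts against 84.4, 74.8 and 85.8 CPM in SD controls, and 69.1 and 84.5 CPM in HFD knockouts against 77.0, 74.5, 64.3 and 66.8 CPM in HFD controls. The sources used here do not name the exons that Cre removes. Counts over the whole gene may not check the deletion, so every direction below rests on the labels. The LRH-1 target Nr0b2, which encodes the corepressor SHP, had no count in the SD knockout libraries against 10.5, 15.3 and 12.8 CPM in the SD controls. HFD control 1 stood apart, at 3.34 on the principal component that separated the genotypes. It lay between the HFD knockouts (24.4 and 20.6) and the other HFD controls (-18.8 to -11.8). The HFD knockout effects of Apom, Apoa4, Apoa5 and Apoc1 are therefore also given without it. All 10 hepatocyte markers were abundant in every group, with the changes given beside the results below. Rn45s, a ribosomal RNA precursor, took 0.985% to 1.32% of counts in HFD libraries against 0.291% to 0.46% in SD libraries, so diet and other differences between these sets of libraries cannot be told apart.

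The promoters of the members were read for the letters of the receptor's site. RefSeq's promoter table (GRCm38.p6) held 12 windows for 8 members, and none for Apoc1 or Apoc3. The 250 bases before each RefSeq start were searched on both strands. Of these, 249 for Apom, 148 for Apoa4 and 50 for Apoa1 lay inside a GENCODE transcript of the same gene. The promoter of Apom was therefore hardly searched, and those of Apoa4 and Apoa1 only in part. The full NR5A site, written CAAGGTCA or CAAGGCCA, was in 0 of the 12 windows, against 3.28% of all 32851 windows in the table. The shorter core AAGGNCA was in 3 of the 12, both windows of Apoa2 and the window of Apoh, against 17.5% of all windows. The HNF4A site, written CAAAGTCCA or CAAAGGTCA, was in 0 of the 12, against 0.807% of all. A match is only a description of these letters. With 12 windows and shares this low for the full NR5A and HNF4A sites, a count of 0 decides nothing, and no conclusion is drawn from it. The windows of Apoa5 overlap each other, as do some of Apoe, so the 12 are not independent. The windows of Apoa2, which holds the core, and of Apoa4, the member with the largest change below, are shown 5′ to 3′ on the + strand, with the reverse complement of AAGGNCA in capitals. The window of Apoa4 is cut to the 102 bases outside annotated transcripts.
Apoa2, chr1:171224804-171225053: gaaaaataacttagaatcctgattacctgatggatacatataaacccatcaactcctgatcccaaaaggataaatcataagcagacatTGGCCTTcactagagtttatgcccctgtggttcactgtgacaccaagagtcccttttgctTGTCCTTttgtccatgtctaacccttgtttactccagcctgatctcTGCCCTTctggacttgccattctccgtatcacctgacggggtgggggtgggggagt
Apoa2, second start, chr1:171221314-171221563: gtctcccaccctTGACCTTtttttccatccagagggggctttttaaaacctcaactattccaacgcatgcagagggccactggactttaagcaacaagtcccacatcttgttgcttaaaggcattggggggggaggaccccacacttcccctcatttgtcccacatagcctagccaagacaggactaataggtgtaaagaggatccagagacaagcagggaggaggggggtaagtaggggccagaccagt
Apoa4, chr9:46240594-46240695: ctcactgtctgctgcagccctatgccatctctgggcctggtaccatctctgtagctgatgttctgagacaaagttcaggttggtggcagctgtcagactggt
In the first of these windows the core starts 162, 102 and 56 bases before the annotated start, and in the other Apoa2 window 238 bases before it. No full site or core was found in the Apoa4 window.

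The levels of the members spanned a wide range. Per kilobase of exon, as annotated by GENCODE, Apoa2 led in SD controls at 8315 ± 874 CPM per kb (SD, n = 3), followed by Apoc1 at 3690 ± 336 and Apoa1 at 3579 ± 280 CPM per kb, whose ranges overlapped. Next came Apoc3 (1197 ± 103) and Apoe (1058 ± 118 CPM per kb), which overlapped as well, then Apoh (580 ± 43.7) and Apoa5 (250.1 ± 73.8 CPM per kb). At the low end, Apoc2 at 92.5 ± 7.72 and Apom at 85.8 ± 16.8 CPM per kb overlapped, and Apoa4 was lowest at 17.6 ± 6.90 CPM per kb. In SD knockouts Apoa4 (47.6 ± 9.10 CPM per kb) and Apom (47.5 ± 15.3 CPM per kb) overlapped at the bottom of the order, and Apoa1 (3619 ± 112 CPM per kb) lay above Apoc1 (1996 ± 245 CPM per kb) with no overlap. In HFD controls Apoc2 (128 ± 9.43), Apoa4 (98.2 ± 29.3) and Apom (57.6 ± 17.5 CPM per kb, n = 4) formed the bottom, each overlapping the next. In HFD knockouts Apom was lowest at 24.4 ± 0.828 CPM per kb (n = 2), below Apoa4 at 54.1 ± 6.61 CPM per kb. Together the members took 1.35% to 1.37% of counts in SD knockouts against 1.51% to 1.77% in SD controls, and 1.59% to 1.66% in HFD knockouts against 1.65% to 2.00% in HFD controls. The SD groups did not overlap in this share, and the HFD groups did, through HFD control 1 at 1.65%.

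**Figure D1:**
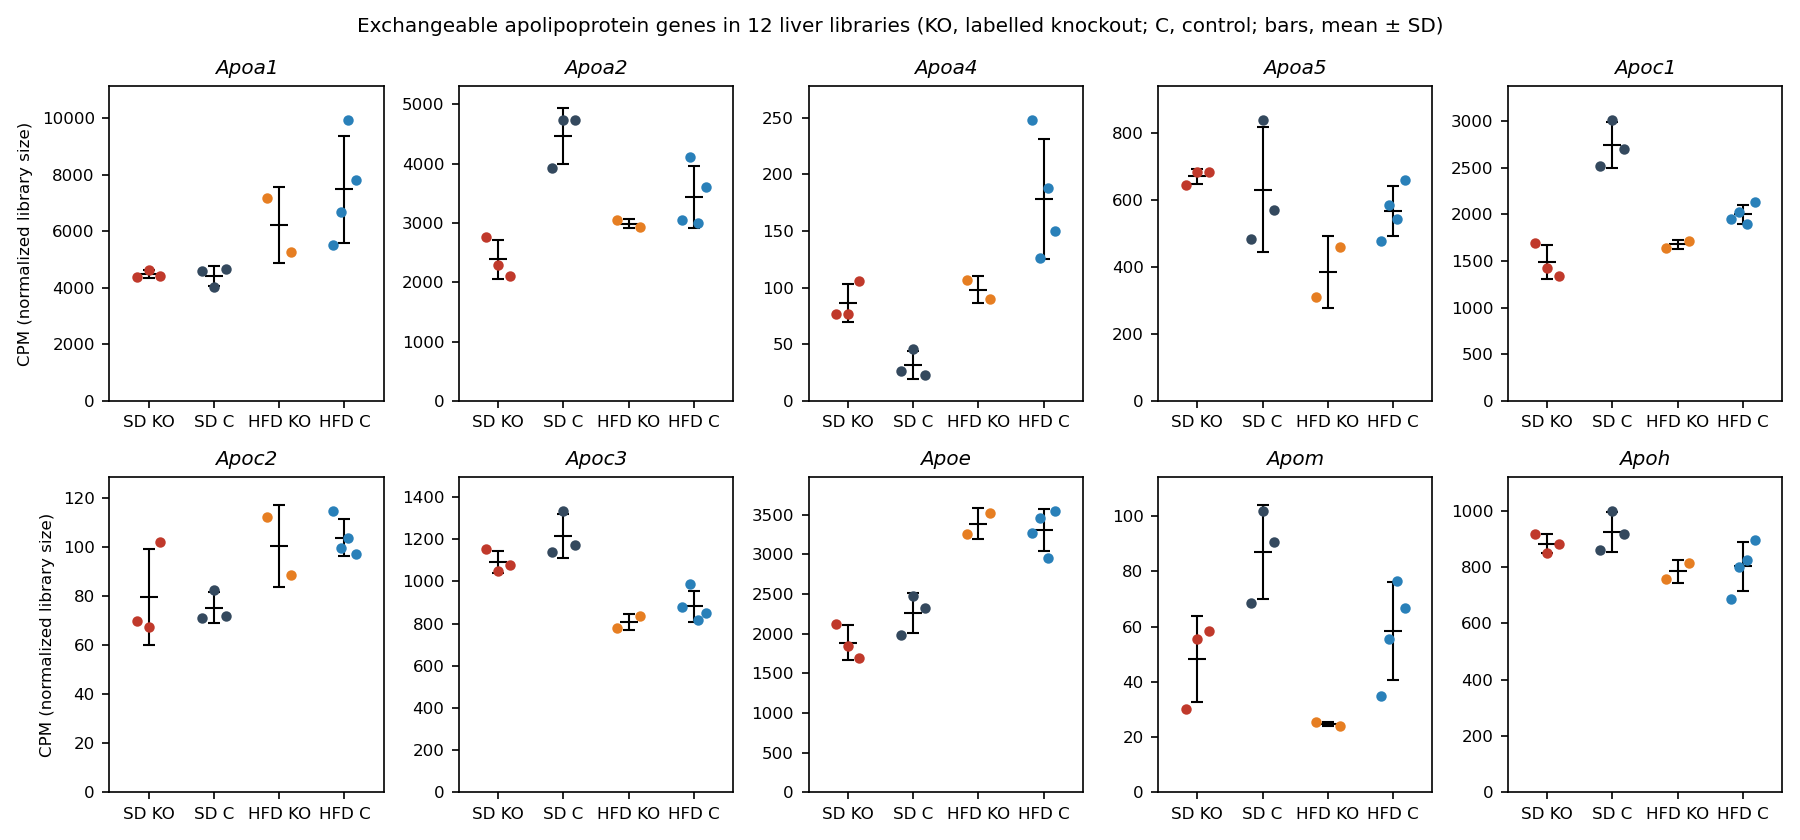
Level of each member in each library, as CPM on a linear axis that starts at 0, for SD knockout (KO), SD control (C), HFD knockout and HFD control libraries, with bars for mean ± SD. Apoa4 is higher in SD knockouts and lower in HFD knockouts than in every control of the same diet, and Apoa2 and Apoc1 are lower in SD knockouts.

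On SD, the comparison asks what loss of LRH-1 in the adult liver does under basal feeding. Of the 10 members, 1 rose in the libraries labelled knockout and 2 fell, against 4.38% of all tested genes called (1.44% higher and 2.94% lower; edgeR quasi-likelihood test, Benjamini-Hochberg adjusted p under 0.05). The median log2 fold change of the members was -0.11, against 0 over all tested genes. Counted by libraries, 1 member lay above and 3 lay below every SD control, against 10.3% and 12.3% of all genes (22.6% in either direction). Among the 10 hepatocyte markers 0 rose and 3 fell on SD: the fibrinogen chains Fgb (-0.71, edgeR adjusted p = 0.039) and Fgg (-0.64, edgeR adjusted p = 0.0416), and the plasma protein Ahsg (-0.63, edgeR adjusted p = 0.0411). Their summed level was 112500 to 162900 CPM in SD knockouts against 126400 to 156900 CPM in SD controls. Malat1, a noncoding RNA of the nucleus, made up 0.677% to 1.07% of SD knockout counts against 0.461% to 0.689% of SD control counts, and these ranges overlapped narrowly. Their part in the members' changes was not tested. In these bulk samples fewer cells of a type and less RNA per cell cannot be told apart.

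Apoa4, the protein of chylomicrons and HDL whose liver transcript is known to follow hepatic triglyceride, was the member that rose. It stood at 77.0, 76.9 and 106 CPM in SD knockouts against 26.2, 46.2 and 23.2 CPM in SD controls. The lowest knockout library lay well above the highest control, although SD control 2 was closer to the knockouts than the other controls were. The log2 fold change was 1.46 (SE 0.27, edgeR adjusted p = 0.00657), a 2.74-fold rise. Without SD control 3 the change was 1.26 and its adjusted p 0.0539, within a range of 8.98e-06 to 0.0539 over the alternatives.

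Apoa2, the second most abundant protein of HDL, fell. It stood at 2757, 2296 and 2109 CPM in SD knockouts against 3923, 4731 and 4741 CPM in SD controls. No knockout library reached the lowest control. Its log2 fold change was -0.90 (SE 0.15, edgeR adjusted p = 0.00223), and the call held in each of the 13 alternatives, with values from -1.02 to -0.82.

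Apoc1, which is known to slow the uptake and lipolysis of triglyceride-rich particles, fell by about as much. It stood at 1689, 1428 and 1338 CPM in SD knockouts against 2522, 3016 and 2698 CPM in SD controls. The groups were far apart and each was tight. Its log2 fold change was -0.89 (SE 0.12, edgeR adjusted p = 0.00056), and this call too held in all 13 alternatives, with values from -0.99 to -0.80.

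Apom, a lipocalin that carries sphingosine-1-phosphate on HDL, was lower in every SD knockout library but did not pass. It stood at 30.3, 55.6 and 58.5 CPM in SD knockouts against 68.3, 101.7 and 90.6 CPM in SD controls. The groups did not overlap, with SD knockout 1 well below the other knockouts. The log2 fold change was -0.86 (SE 0.27, edgeR adjusted p = 0.0911). It passed under 4 of the 13 alternatives, over which the adjusted p ranged from 0.00817 to 0.259.

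The other 6 members gave overlapping SD groups. Apoe, the receptor ligand of remnants, stood at 2124, 1848 and 1694 CPM in SD knockouts against 1984, 2474 and 2326 CPM in SD controls, a log2 fold change of -0.26 (SE 0.12, edgeR adjusted p = 0.296). Apoc3, the inhibitor of lipoprotein lipase and remnant uptake, differed by -0.15 (SE 0.11, edgeR adjusted p = 0.53). Its range was 1051 to 1152 CPM in SD knockouts against 1138 to 1332 CPM in SD controls. Apoc2, the cofactor that lipoprotein lipase needs, ranged from 67.2 to 102.1 CPM in SD knockouts against 71.1 to 82.4 CPM in SD controls. Its log2 fold change of 0.09 (SE 0.16) turned to -0.14 without SD knockout 3, the highest library. Apoa5, which enhances lipolysis by lipoprotein lipase, ranged from 644 to 685 CPM in SD knockouts against 483 to 839.6 CPM in SD controls (log2 fold change 0.09, SE 0.19). Apoa1, the main protein of HDL and activator of LCAT, stood at 4375, 4631 and 4412 CPM in SD knockouts against 4600, 4024 and 4646 CPM in SD controls (0.02, SE 0.18, edgeR adjusted p = 0.99, with a sign that turned when SD control 2 or SD knockout 2 was left out). Apoh ranged from 851 to 918 CPM in SD knockouts against 859.5 to 998 CPM in SD controls (-0.07, SE 0.11), a difference that was 0.02 when libraries were scaled by size alone.

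On HFD, the same contrast was made with 2 libraries labelled knockout. There 1 of the 10 members fell and 0 rose, against 2.7% of all tested genes called (1.66% lower and 1.04% higher). The median log2 fold change of the members was -0.23, against -0.01 over all tested genes. Counted by libraries, 4 members (Apoa4, Apoa5, Apoc1 and Apom) lay below every HFD control and 0 above, against 11.9% and 10.3% of all genes (22.2% in either direction). Shares of 2 other RNAs moved with the labels on HFD. Albumin, Alb, took 10% to 13.7% of counts in HFD knockouts against 7.58% to 8.45% in HFD controls, and Malat1 took 1.58% to 1.79% in HFD knockouts against 1.13% to 1.37% in HFD controls. Of the hepatocyte markers, 1 rose, Ttr (0.64, edgeR adjusted p = 0.0116), and 0 fell. The part of these shifts in the members' values was not tested.

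Apom was the member that fell. It stood at 25.3 and 24.1 CPM in HFD knockouts against 35.0, 55.4, 76.3 and 66.6 CPM in HFD controls. The lowest control was HFD control 1, the library that stood apart. The log2 fold change was -1.24 (SE 0.28, edgeR adjusted p = 0.0281), and without HFD control 1 it was -1.41 with an adjusted p of 0.00222. The call was lost without any of the other HFD controls or either HFD knockout, with adjusted p values of 0.0571 to 0.218, and in a fit of the HFD groups alone (0.0686).

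Apoa4 lay on the other side of its controls from SD. It stood at 107 and 89.6 CPM in HFD knockouts against 248, 127, 188 and 149.7 CPM in HFD controls. Both knockout libraries were below the lowest control, and HFD control 1 was the highest library. The log2 fold change was -0.86 (SE 0.26, edgeR adjusted p = 0.0966), and without HFD control 1 it was -0.65 with an adjusted p of 0.124. The adjusted p ranged from 0.00768 to 0.337 over the alternatives and passed with DESeq2 (0.0415) and with no filter on low counts.

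Apoa5 stood at 310 and 460.4 CPM in HFD knockouts against 478, 585, 545 and 658 CPM in HFD controls. HFD knockout 2 lay just under HFD control 1. The log2 fold change was -0.56 (SE 0.20, edgeR adjusted p = 0.196), or -0.62 with an adjusted p of 0.104 without HFD control 1. It ranged from -0.29 without HFD knockout 1 to -0.86 without HFD knockout 2, with an adjusted p of up to 0.818. Apoc1 stood at 1643 and 1714 CPM in HFD knockouts against 1952, 2027, 1901 and 2134 CPM in HFD controls. The groups were apart but close, with a log2 fold change of -0.26 (SE 0.12, edgeR adjusted p = 0.375) that was nearly the same without HFD control 1 (-0.26, adjusted p = 0.311). Apoa2 stood at 3050 and 2932 CPM in HFD knockouts against 3054, 4111, 2999 and 3614 CPM in HFD controls, and these groups overlapped (-0.20, SE 0.15, edgeR adjusted p = 0.627, and -0.098 without HFD control 2).

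The 5 remaining members, whose HFD groups all overlapped, gave log2 fold changes between -0.27 and 0.03. Apoa1 stood at 7167 and 5278 CPM in HFD knockouts against 5513, 6663, 9937 and 7818 CPM in HFD controls (-0.27, SE 0.19, edgeR adjusted p = 0.604). This value ranged from -0.50 without HFD knockout 1 to -0.058 without HFD knockout 2. Apoe stood at 3251 and 3524 CPM in HFD knockouts against 3270, 3462, 2954 and 3543 CPM in HFD controls (0.03, SE 0.13, edgeR adjusted p = 0.95). Apoc3 ranged from 779 to 835 CPM in HFD knockouts against 816 to 985 CPM in HFD controls (-0.13, and -0.062 without HFD control 2). Apoc2 ranged from 88.6 to 112 CPM in HFD knockouts against 97.2 to 114.5 CPM in HFD controls (-0.05), and Apoh from 756.5 to 814 CPM in HFD knockouts against 688 to 897 CPM in HFD controls (-0.03).

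**Figure D2:**
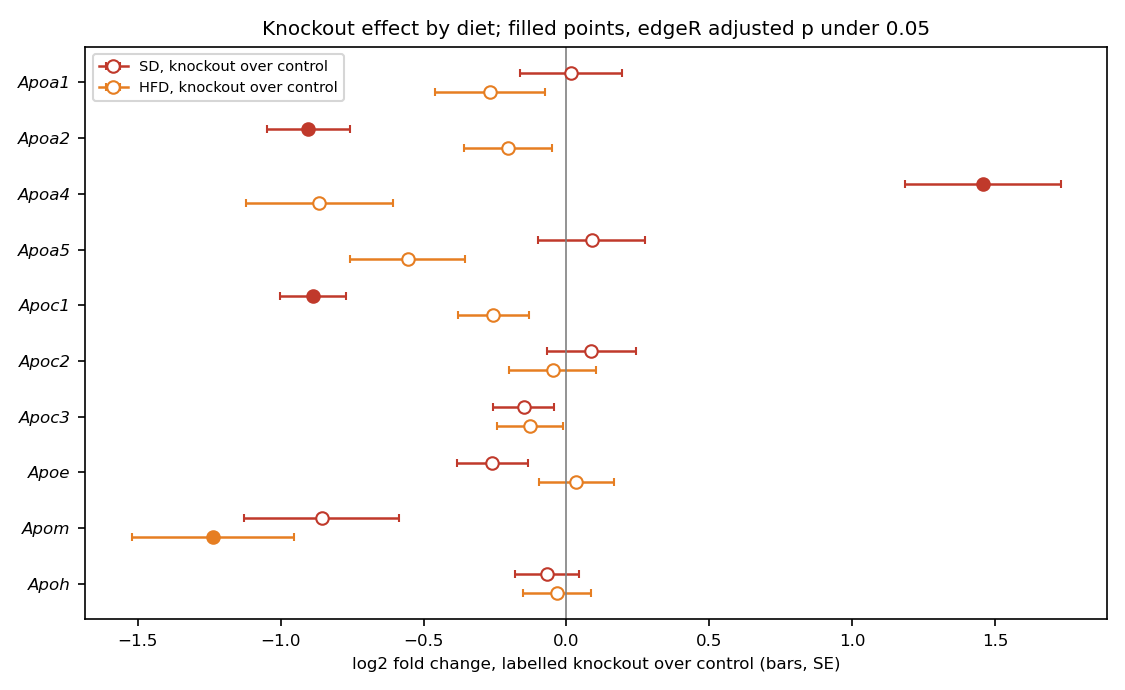
Log2 fold change of each member, labelled knockout over control, on SD and on HFD, with bars for SE and filled points where the edgeR adjusted p was under 0.05. Apoa4 is at 1.46 on SD and -0.86 on HFD, while Apom is negative on both diets.

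The knockout effects on the 2 diets can also be set against each other, although diet cannot be told apart from other differences between the library sets. For Apoa4 the HFD effect minus the SD effect was -2.32 on the log2 scale (SE 0.38). Its unadjusted p of 1.69e-05 ranked 1 of 12015 genes, but the edgeR adjusted p was 0.202, so the difference did not pass over all genes. The adjusted p ranged from 7e-06 to 0.678 over 18 alternatives and passed in 2 of them, DESeq2 and no filter on low counts. Without HFD control 1 the difference was -2.11 with an adjusted p of 0.0594. By libraries, Apoa4 was the 1 member above every control on SD and below every control on HFD, a pattern held by 0.408% of all tested genes. For Apoc1 and Apoa2 the differences were 0.63 (SE 0.17, edgeR adjusted p = 0.374) and 0.70 (SE 0.21, edgeR adjusted p = 0.466), both toward a smaller fall on HFD. The Apoc1 difference passed with DESeq2 alone (adjusted p = 0.0255, range 0.0255 to 0.772). Across all genes edgeR called 0 differences, with 911 at an unadjusted p under 0.05, and DESeq2 called 30.

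Averaged over both diets, 3 members fell in the libraries labelled knockout and 0 rose, against 8.36% of all tested genes called (5.36% lower and 3% higher). The mean log2 effect was -1.05 for Apom (SE 0.20, edgeR adjusted p = 0.00322). It was -0.57 for Apoc1 (SE 0.09, edgeR adjusted p = 0.000556) and -0.55 for Apoa2 (SE 0.11, edgeR adjusted p = 0.00398). These 3 calls held in each of the 18 alternatives, the removal of HFD control 1 included. Apoc1 and Apom were also the 2 members below every control on both diets, a pattern held by 4.43% of all tested genes. The mean effect of Apoa4 was 0.30 (SE 0.18, edgeR adjusted p = 0.391).

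**Figure D3:**
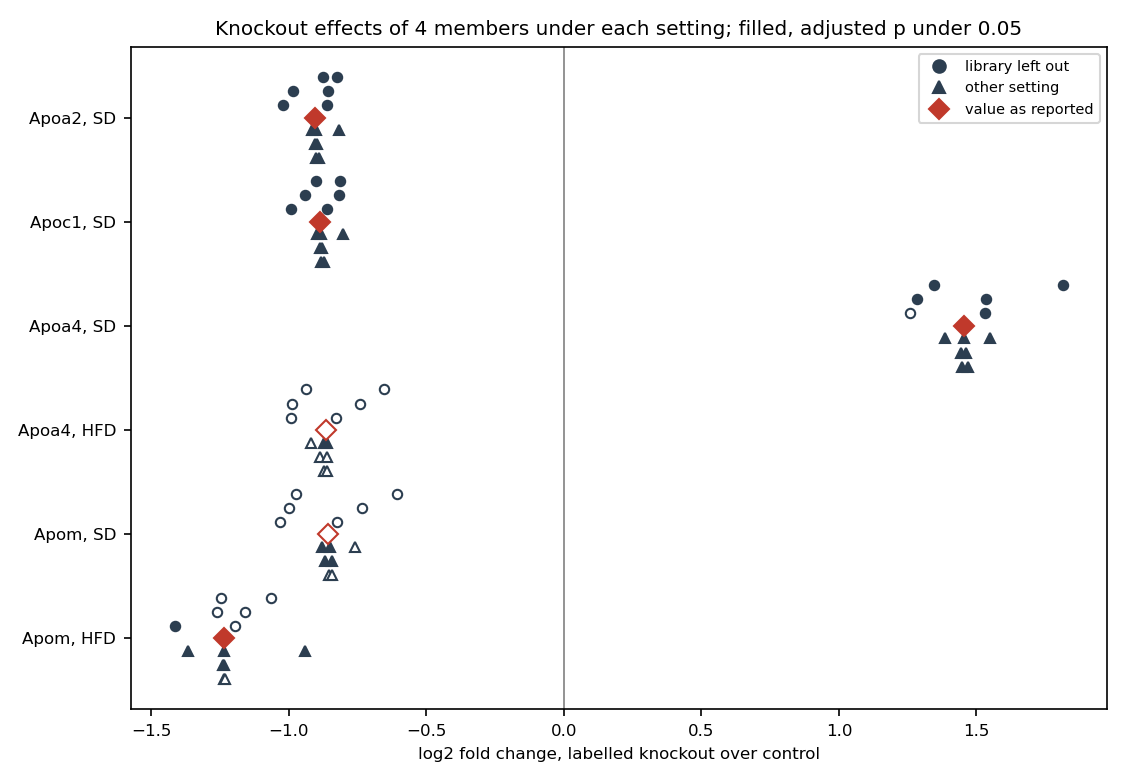
Log2 fold change of Apoa2, Apoc1, Apoa4 and Apom, labelled knockout over control, as reported (diamonds), with each library left out (circles) and under the other settings (triangles), filled where the adjusted p was under 0.05. The signs do not change, the SD values of Apoa2 and Apoc1 stay filled throughout, and the HFD value of Apom is open in 6 of 13 alternatives.

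Between the diets, the controls show the members' levels under lipid load, with the limit that diet cannot be told apart from other differences between the library sets. These comparisons share libraries with the knockout comparisons above. In HFD controls against SD controls 4 members were higher and 3 lower, against 30.1% of all tested genes called. Counted by libraries, 4 members lay above and 2 below every SD control, against 20.5% and 16.7% of all genes (37.2% in either direction). Apoa4 was 5.66-fold higher, with a log2 fold change of 2.50 (SE 0.26, edgeR adjusted p = 2.48e-06), at 178 ± 53.2 CPM in HFD controls (n = 4) and 31.9 ± 12.5 CPM in SD controls (n = 3). Apoa1 (0.76, edgeR adjusted p = 0.00328), Apoe (0.55, 0.00233) and Apoc2 (0.47, 0.0202) were higher as well, the last losing its call without SD control 1 or SD control 3. Apoc3 (-0.46, edgeR adjusted p = 0.00257), Apoc1 (-0.45, 0.00445) and Apoa2 (-0.37, 0.0458) were lower. The Apoa2 call was lost in 8 of its 14 alternatives, the removal of HFD control 1 included (-0.32, edgeR adjusted p = 0.0999).

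In HFD knockouts against SD knockouts 1 member was higher and 3 lower, against 26.6% of all tested genes called. By libraries, 3 lay above and 4 below every SD knockout, against 28.2% and 24.5% of all genes (52.7% in either direction). Apoe was higher, with a log2 fold change of 0.84 (SE 0.14, edgeR adjusted p = 0.000308). Apom (-0.96, edgeR adjusted p = 0.0309), Apoa5 (-0.80, 0.0113) and Apoc3 (-0.44, 0.0146) were lower. Each of these 3 calls was lost without HFD knockout 1. The Apom call was also lost without HFD knockout 2, SD knockout 2 or SD knockout 3, with adjusted p values of 0.0967 to 0.127 over these 4 settings. That of Apoc3 was also lost without SD knockout 1 (adjusted p = 0.0531). For Apoa4 the log2 fold change was 0.18 (SE 0.27, edgeR adjusted p = 0.666), at 98.1 ± 12 CPM in HFD knockouts (n = 2) and 86.5 ± 16.5 CPM in SD knockouts (n = 3), whose ranges overlapped.

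Several members lie side by side in the genome. Apoa1, Apoc3, Apoa4 and Apoa5 lie in that order on chromosome 9, and of these Apoa4 alone passed on SD, while Apoa1, Apoc3 and Apoa5 gave log2 fold changes between -0.15 and 0.09. Apoc2, Apoc1 and Apoe lie in that order on chromosome 7, and of these Apoc1 alone passed on SD. Of 10 tested genes listed around the chromosome 9 cluster and 9 around the chromosome 7 cluster, 0 passed in either knockout comparison. Of all tested genes 4.38% passed on SD and 2.7% on HFD. In the mean over both diets Gemin7, of the chromosome 7 list, was lower. Apoc4, the neighbour of Apoc2, lay below every control on both diets but passed on neither (-0.59 and -0.53, edgeR adjusted p = 0.0521 and 0.108). Counts of 2 genes within 1 library can be set against each other without any scaling between libraries, and these ratios, chosen after the values were seen, are given with no test. The Apoc1 to Apoe ratio was 0.773 to 0.795 in SD knockouts against 1.16 to 1.27 in SD controls, and 0.486 to 0.505 in HFD knockouts against 0.585 to 0.644 in HFD controls. The Apoa4 to Apoa1 ratio was 0.0166 to 0.0239 in SD knockouts against 0.00499 to 0.0115 in SD controls, and 0.0149 to 0.017 in HFD knockouts against 0.019 to 0.045 in HFD controls. Against its other cluster neighbours Apoa4 was apart on SD but overlapped on HFD. The Apoa4 to Apoc3 ratio was 0.0668 to 0.098 in SD knockouts against 0.0198 to 0.0347 in SD controls, and 0.107 to 0.137 in HFD knockouts against 0.129 to 0.283 in HFD controls. The Apoa4 to Apoa5 ratio was 0.112 to 0.155 in SD knockouts against 0.0407 to 0.0551 in SD controls, and 0.195 to 0.344 in HFD knockouts against 0.216 to 0.52 in HFD controls. For Apoa2 to Apoa1, both proteins of HDL, it was 0.478 to 0.63 in SD knockouts against 0.853 to 1.18 in SD controls, and the HFD groups overlapped.

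**Figure D4:**
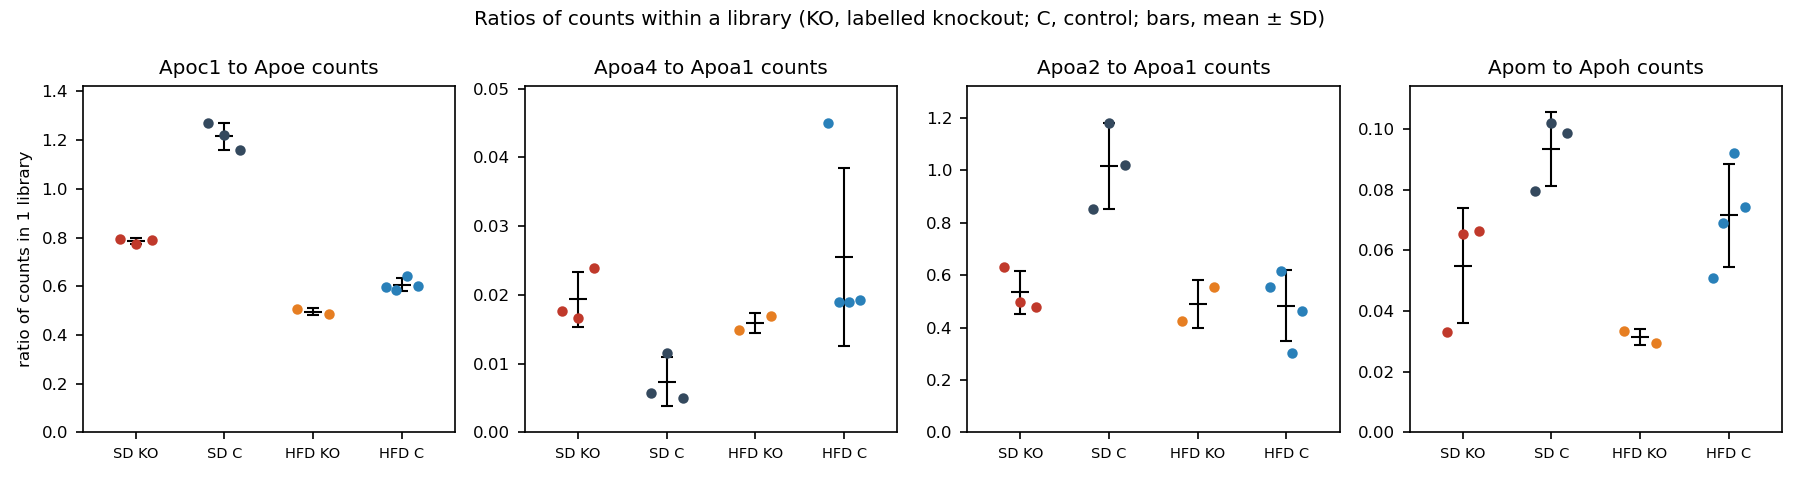
Ratio of the counts of 2 members within each library, on linear axes that start at 0, with bars for mean ± SD. The Apoc1 to Apoe ratio is lower in knockouts than in controls of the same diet, and the Apoa4 to Apoa1 ratio is above the controls on SD and below them on HFD, where the Apoa4 to Apoc3 and Apoa4 to Apoa5 ratios (not drawn) overlap.

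Some counts could hold reads of other genes, since the strand setting of the counting is not given in the sources used here. In GENCODE, the antisense gene Gm10680 shares 632 of the 1815 exon bases of Apoa4. Gm47528, also on the opposite strand, shares 634 of them. The antisense gene Gm47544 shares 524 of the 2522 exon bases of Apoa5. Gm44805, on the same strand, shares 646 of the 813 exon bases of Apoc2. None of these genes has a row of its own in the files, so their part in the counts was not tested. Prkca, which has a row, shares 30 of the 1594 exon bases of Apoh.

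Among the other genes of lipoprotein metabolism, listed with earlier results of these data known, the remaining apolipoproteins held falls and no rise. Of 13 tested, 2 fell on SD and 3 on HFD, against 2.94% and 1.66% of all tested genes lower. The median log2 fold change was -0.07 on SD and -0.31 on HFD, against 0 and -0.01 over all tested genes. Apon, a plasma apolipoprotein of rodents, averaged 69.1 ± 3.72 CPM in SD knockouts and 226 ± 16.2 CPM in SD controls (log2 fold change -1.71, edgeR adjusted p = 0.000176). On HFD it fell by 1.86 on the log2 scale (edgeR adjusted p = 0.000206). Apol7a fell on both diets (-1.53 and -0.86, edgeR adjusted p = 0.0012 and 0.0492), and Apof, also known as lipid transfer inhibitor protein, fell on HFD (-0.90, edgeR adjusted p = 0.0104). Apoc4, the neighbour of Apoc2, passed in the mean over both diets (-0.56, edgeR adjusted p = 0.00599).

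Of 15 tested genes of lipoprotein assembly, which build the particles, 1 rose and 1 fell on SD, against 4.38% of all tested genes called. On HFD 0 rose and 1 fell, against 2.7%. The medians were 0.08 on SD and -0.09 on HFD. Tm6sf2, which helps load lipid onto very low density lipoprotein, fell on both diets (-0.98 on SD and -1.04 on HFD, edgeR adjusted p = 0.0366 and 0.0153). Sec24d, a coat subunit of transport vesicles, rose on SD (0.72, edgeR adjusted p = 0.011). The structural protein gene Apob (0.08 on SD and -0.19 on HFD, edgeR adjusted p = 0.793 and 0.544) and the lipid loader Mttp (0.16 and -0.23, edgeR adjusted p = 0.439 and 0.306) did not pass.

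Of 12 tested genes of HDL formation and cholesterol efflux, 5 fell and 0 rose on SD, against 4.38% of all tested genes called. On HFD 4 fell and 1, Soat2, rose, against 2.7%. Lcat passed on SD but not on HFD (-0.49 and -0.46, edgeR adjusted p = 0.0362 and 0.0844). Abca1, also listed, passed in neither knockout comparison. The medians were -0.35 on SD and -0.19 on HFD. The HDL receptor Scarb1 fell on both diets (-0.89 and -0.82, edgeR adjusted p = 0.000269 and 0.000424). The sterol exporter subunits Abcg5 (-1.82 on SD and -1.06 on HFD) and Abcg8 (-1.57 and -0.99) passed on both diets. So did the phospholipid exporter Abcb4, at 53.1 ± 1.90 CPM in SD knockouts and 106.6 ± 8.08 CPM in SD controls, and at 59.1 ± 5.19 CPM in HFD knockouts and 114.9 ± 8.11 CPM in HFD controls.

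Of 25 tested regulators of apolipoprotein genes, 5 fell and 1 rose on SD, against 4.38% of all tested genes called. On HFD 1 fell and 0 rose, against 2.7%. The medians were -0.19 on SD and -0.22 on HFD. These shares of all genes also stand beside the lists of target genes below. Srebf1, Cebpb, Ppara and Nr1h4 fell on SD beside Nr0b2, and Foxa1 rose (0.76, edgeR adjusted p = 0.0191). Creb3l3, the liver factor known to drive Apoa4, did not pass on SD (-0.19, edgeR adjusted p = 0.446) or on HFD (-0.06, edgeR adjusted p = 0.893). Its target list held 9 tested genes, the members Apoa4, Apoa5 and Apoc2 among them. Of these 9, 2 rose and 2 fell on SD, and 1 rose and 2 fell on HFD. The medians were -0.19 on SD and -0.56 on HFD. The SD median equals the value of Creb3l3 itself, and the HFD median that of Apoa5. These medians are therefore not a reading apart from Creb3l3 and the members. Of 13 tested target genes of PPAR alpha, the receptor of fatty acids, 1 rose on each diet, with medians of -0.37 on SD and 0.05 on HFD. This was Cidec, which both lists hold. Cidec, a lipid droplet protein, rose on both diets (3.25 and 3.07, edgeR adjusted p = 0.0354 and 0.00208), and the desaturases Fads1 and Fads2 fell on both. Cidec stood at 1.95, 1.61 and 0.31 CPM in SD controls, so the size of its SD rise (SE 0.82) rests on few counts. In HFD controls it stood at 7.53, 1.74, 1.83 and 1.95 CPM, with HFD control 1 the highest.

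Apoa4 is best known from the intestine, and the enterocyte list was therefore read beside it. Its 10 markers summed to 351 to 402 CPM in SD knockouts against 470.3 to 515 CPM in SD controls, and to 467 to 554 CPM in HFD knockouts against 549 to 734 CPM in HFD controls. Fabp2 and Anpep carried these sums and were counted in every library. The rest had few counts. In SD knockouts against SD controls these were 8 against 4 for Vil1, 3 against 0 for Cdhr2 and 1 against 0 for Lct and Alpi. Sis had 32 against 40 on SD and 0 on HFD. On SD, Cdx2 had 0 against 1 and Muc13 2 against 2. Cdx1 was at 0 in every library. Whether other tissue added to the Apoa4 counts was not tested. Stellate cell markers summed to 537 to 610 CPM in SD knockouts against 385 to 483 CPM in SD controls, and 0 of the 10 passed on SD. On HFD they summed to 478 to 571 CPM in knockouts against 333 to 482 CPM in controls, and 0 of the 10 passed. In the mean over both diets, where Apom, Apoc1 and Apoa2 fell, 4 of the 10 rose, against 3% of all tested genes. These were Col1a2, Col3a1, Reln and Colec11, and the list median was 0.47. The part of these markers in the members' changes was not tested.

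The genes most like Apoa4 were ranked over the 12 libraries by the root mean square difference of log2 CPM, each gene centred on the mean of each diet. Lrrtm2 (0.335), Dnal1 (0.355), Ptger1 (0.367), Pomgnt2 (0.376) and Meis1 (0.377) came closest among 12014 genes. All were weakly expressed, so their closeness rests on few counts. In SD control 1 Lrrtm2 was at 3.52 CPM, Dnal1 and Meis1 at 1.56, and Ptger1 and Pomgnt2 at 0.39, against 26.2 CPM for Apoa4. None of these 5 passed on SD, where Lrrtm2 had a log2 fold change of 0.99 (edgeR adjusted p = 0.0617). The nearest other member was Apoa5, at 0.609 and rank 1050.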

How the data were processed

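Livers were frozen, their total RNA was extracted with Trizol, and a Nugen Ovation kit was used for the libraries, per the labels' protocols. The submitters' processing notes name mm9 as the build, with TopHat2 2.1.0, HTSeq and DESeq2 1.14.1. Each deposited table holds raw counts by gene symbol, which the authors left without normalization. No source used here gives the annotation, the strand setting or how multiply mapped reads were handled.

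The counts were fitted in edgeR 4.0.16 (R 4.3.3, limma 3.58.1) by quasi-likelihood, using TMM normalization, filterByExpr (minimum count 10), 4 group means over all 12 libraries and a two-sided test, adjusted over all 12015 genes tested, with a threshold of 0.05. The common biological coefficient of variation was 0.153. CPM use the normalized library sizes, SE were derived from the test statistic, and log2 CPM for the ranking of like genes used a prior count of 2. Exon lengths and overlaps came from the GENCODE annotation of GRCm38, which is not the authors' build. The procedure was tested on simulated counts. The pairing check took the correlation of deviations between libraries with the same number, and it cannot settle whether they were paired.

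All 10 members are described. From each list, genes named were up to 4 per knockout comparison that passed, by smallest p. Apob, Mttp, Creb3l3, Apoc4, Gemin7, Ppara, Nr1h4, Lcat, Soat2, Abca1 and the marker genes were named beside them after their values were seen. The members and lists were chosen with earlier results of these data known. The lists of lipases and of lipoprotein receptors are not reported here. Alternatives were DESeq2 1.42.0, RLE normalization, library size only, no filter, only the groups compared, thinning to the smallest library, the replicate number as a block and each library left out.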

Additional observations from a re-analysis of the deposited data

Results flagged for a closer look

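Apoa4 was flagged because its knockout effect had opposite directions on the 2 diets: every library labelled knockout was above every control on SD and below every control on HFD. The difference, HFD effect minus SD effect, was -2.32 on the log2 scale (SE 0.38). It was tested in the fit of all genes and did not pass with edgeR (adjusted p = 0.202, range 0.0509 to 0.678 with a library left out). No library of the HFD controls, the group of 4, was flagged for any of the 10 members by Dixon's test. The ratio needed was 0.829 and the largest seen was 0.633. In a group of 4 only a very distant library can reach it, so no conclusion is drawn from this. HFD control 1 was the library furthest out for Apoa4, Apoc2, Apom and Apoh, and other HFD controls were for the rest. Groups of 3 and 2 were not tested in this way.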

How the results depend on the processing

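Over the members' values in all comparisons and alternatives, 813 kept their direction and side of the threshold, 24 lost a call, 15 gained one and 28 changed sign. The sign changes were in values that had not passed. With a library left out, Apoc2 ranged from -0.14 to 0.19 on SD, from -0.22 to 0.12 on HFD, from -0.31 to 0.084 for the difference between diets and from -0.093 to 0.10 for the mean effect. The SD values ranged from -0.068 to 0.35 for Apoa5 and from -0.049 to 0.051 for Apoa1. The HFD values ranged from -0.020 to 0.099 for Apoe and from -0.091 to 0.030 for Apoh. The difference between diets ranged from -0.038 to 0.087 for Apoc3 and from -0.029 to 0.096 for Apoh, and Apoa5 between the diets in controls from -0.30 to 0.11. Scaling by library size alone gave 0.024 for Apoh on SD and differences between diets of -0.067 for Apoc3 and -0.055 for Apoh. Thinning gave 0.0068 for Apoh on HFD, and the replicate block gave 0.042 for Apoh on HFD and a difference of -0.031 for Apoc3. The cause was not tested.

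On HFD, members called numbered 1 as reported, 2 with DESeq2, 2 with no filter and 0 in a fit of the HFD groups alone. HFD genes called numbered 325, 518 with no filter and 127 in the HFD groups alone. For the difference between diets, members called numbered 0, 2 with DESeq2 and 1 with no filter, and genes called numbered 0, 30 with DESeq2, 17 with no filter and 1 with the replicate block. That difference and the mean effect need all 4 groups, so a fit of the groups compared alone was not run for them. Libraries with the same number in the labels gave correlations of deviations of -0.013 to 0.121. Pairs with unlike numbers were not set beside them and the groups are small, so this cannot settle whether the numbers pair the libraries. With the replicate number as a block the SD call of Apom passed (-0.88, adjusted p = 0.0114) and the diet call of Apoa2 in controls did not (-0.41, adjusted p = 0.0614).

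With each library left out, genes called ranged from 220 (without SD knockout 3) to 498 of 526 on SD. They ranged from 85 (without HFD knockout 1) to 602 (without HFD control 1) on HFD, from 0 to 4 for the difference, and from 660 (without SD control 3) to 1222 for the mean effect. Between diets they ranged from 2831 to 3304 in controls and from 1978 (without HFD knockout 1) to 2733 in knockouts. Members called ranged from 2 to 3 on SD, 0 to 1 on HFD, 0 to 0 for the difference, 3 to 3 for the mean, 5 to 7 between diets in controls and 1 to 4 in knockouts. With 1 HFD knockout left, that library is assumed to vary like the other groups.

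Scaling by library size alone moved the SD split of calls to 263 higher and 256 lower (50.7% higher), against 173 and 353 (32.9%) as reported. It moved the share of higher calls to 46.7% against 56.1% between diets in knockouts and to 46.1% against 35.9% for the mean effect. It moved the median of all genes on the difference between diets to -0.10. Every knockout call of a member kept its direction and passed under this scaling, with Apoa4 at 1.55, Apoa2 at -0.82 and Apoc1 at -0.80 on SD, and Apom at -1.23 on HFD.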
